A study of Mus musculus with 6 samples.

Results

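The SMAD genes and their feedback inhibitors were described in RNA-seq libraries of NIH/3T3, a line derived from mouse embryo fibroblasts. The 10 genes were taken by symbol from a table of 54752 genes, and were chosen with earlier results of these data known. They were the receptor SMADs Smad1, Smad2, Smad3 and Smad5, the common SMAD Smad4, the inhibitory SMADs Smad6 and Smad7, the corepressors Ski and Skil, and Pmepa1. There were 3 groups of 2 libraries, each collected after 72 h: cells given vehicle, which the sample labels name as PBS, cells given TGF-β1 at 1 ng/ml with DMSO as the drug's solvent, and cells given TGF-β1 at 1 ng/ml with 5 μM BI6727, an inhibitor of the kinase PLK1. The groups address which genes TGF-β1 moves and whether BI6727 alters that response. All libraries came from 1 cell line, and no label ties a replicate to a separate culture, so p-values measure only the spread between these libraries. TGF-β1 and DMSO were added to the same cells and cannot be told apart in the comparison with vehicle, and the labels do not say whether the BI6727 cells also received DMSO.

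TGF-β1 binds paired receptor kinases that phosphorylate the receptor SMADs. SMAD2 and SMAD3 serve the TGF-β and activin branch, SMAD1 and SMAD5 serve the BMP branch, and both kinds join SMAD4 to enter the nucleus and bind DNA. The pathway is known for limiting itself through genes that it switches on. SMAD7 blocks the receptors and recruits ubiquitin ligases to them, SMAD6 acts mainly on the BMP branch, SKI and SKIL (also called SnoN) hold SMAD complexes in a repressed state, and PMEPA1 binds SMAD2 and SMAD3 and keeps them from the receptor.

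The libraries held between 18362378 and 24452153 counts on genes, of which 10165 to 23793 fell on these 10 genes together. All 7 fibroblast marker genes were detected, with a summed level between 7738 and 10059 normalized CPM. Normalized CPM are counts scaled to a common library size (CPM) after TMM correction of the library sizes. The single markers ranged from Vim, at 4014 to 5126, down to S100a4, at 7.48 to 22.0. The summed level of 6 epithelial markers was between 0.364 and 2.08 normalized CPM, that of 5 endothelial markers between 0.312 and 3.77, and that of 6 immune markers between 3.04 and 5.05, with Krt5, Krt18, Kdr, Emcn, Adgre1 and Cd3e at 0 in every library. The 2 DMSO replicates stood apart from each other. Over all tested genes, the log2 values of the pair differed with an SD of 0.377, where this SD was 0.163 in the vehicle pair and 0.147 in the BI6727 pair. Of the 10 genes, 8 were higher in DMSO replicate 1 than in DMSO replicate 2, by a median over the 10 of 0.19 on the log2 scale, and the median over the 5304 tested genes in the same range of exonic length was 0.10. All 10 genes passed the filter of at least 10 CPM in more than 3 libraries, Smad6 with 4 libraries above that level and the others with 6, and 9518 genes were tested in all.

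The counting of these genes had little room for shared reads. The exons of Smad5 overlapped another gene, Gm27301, over 1.35% of their length, and Gm27301 had 0 counts in every library. No exon of the other 9 genes was overlapped. Smad3 (mm10 chromosome 9, 63646767 to 63757994, minus strand, 13 exonic blocks) and Smad6 (chromosome 9, 63953076 to 64022059, minus strand, 6 exonic blocks) are neighbours in the same orientation, 195081 bases apart, with 3 other listed genes between them. They were also the 2 genes of the set that passed the test as lower under TGF-β1, while 3 others had lower fitted levels in the DMSO group without passing it. Their 5′ flanks are shown for that reason, as the RefSeq promoter windows of GRCm38.p6 give them, 5′ to 3′ on the minus strand. The Smad3 sequence is the 250 bases before the start, chr9:63757995-63758244. The Smad6 sequence is the 250 bases before the start and 4 after it, chr9:64022056-64022309, and its capitals mark the palindromic SMAD element GTCTAGAC.
Smad3: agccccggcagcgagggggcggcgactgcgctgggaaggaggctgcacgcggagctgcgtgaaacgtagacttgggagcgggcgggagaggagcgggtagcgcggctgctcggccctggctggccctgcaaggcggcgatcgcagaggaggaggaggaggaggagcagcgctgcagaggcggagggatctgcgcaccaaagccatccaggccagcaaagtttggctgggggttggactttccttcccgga
Smad6: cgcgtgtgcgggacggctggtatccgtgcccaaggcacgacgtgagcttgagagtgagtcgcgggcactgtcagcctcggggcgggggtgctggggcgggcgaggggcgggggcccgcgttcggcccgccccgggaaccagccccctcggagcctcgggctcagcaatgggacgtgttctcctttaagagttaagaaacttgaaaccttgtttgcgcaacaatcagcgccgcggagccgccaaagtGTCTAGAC

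The windows were searched on both strands, over 250 bases before and 50 after each start, for 4 motifs, none of which contains another. GTCTAGAC was present in 70 of 32851 mouse promoter windows (0.213%), and in that of Smad6 it spanned the start. The SMAD box core CAGAC was present in 49.6% of promoter windows, the GC-rich SMAD element GGCGCC in 11.9% and the AP-1 site TGANTCA in 7.81%. Neither the Smad3 nor the Smad6 window held these 3, and the Smad3 window held none of the 4. In all, 5 of the 10 genes had windows (Smad1, Smad3, Smad5, Smad6 and Ski), 7 windows together. These 7 held between 63.0% and 85.3% GC and between 25 and 59 CpG dinucleotides, where the medians over promoter windows were 52.7% and 7. Smad3 (67.7% and 25) had the fewest CpG dinucleotides, and Smad6 had 66.3% GC and 31. A match is a match of letters, and no binding was measured in these cells.

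To compare genes with each other, counts were expressed per length, as normalized CPM per kilobase of exon. In vehicle cells Smad4, the partner shared by all receptor SMADs, had the highest level, at 22.7 ± 0.160 CPM per kilobase (SD, n = 2). Smad2 followed with 16.9 ± 0.359 and Ski with 16.3 ± 0.727, and these 2 overlapped. Smad3 stood at 12.9 ± 0.292, Pmepa1 at 11.7 ± 1.17 and Smad7 at 8.90 ± 0.0886, each apart from the next. Smad5 at 6.87 ± 0.663 and Smad1 at 6.79 ± 0.00789 overlapped, Smad6 lay below them at 5.91 ± 0.0378, and Skil was lowest at 2.27 ± 0.119. Without added TGF-β1, then, the common SMAD gene was the most abundant per length and the inhibitors Smad6 and Skil were the least.

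With TGF-β1 and DMSO the order changed. Pmepa1 stood first at 83.4 ± 3.06 CPM per kilobase (SD, n = 2). Smad7 at 20.8 ± 3.06 and Smad4 at 19.7 ± 1.53 overlapped, and Smad2 (17.8 ± 0.987), Ski (15.7 ± 1.76), Skil (11.6 ± 1.92) and Smad1 (8.48 ± 0.00470) followed without overlap. Smad5 at 5.68 ± 1.06 and Smad3 at 5.27 ± 0.829 overlapped, and Smad6 was last at 3.40 ± 0.0995. Smad3 moved from the fourth place in vehicle cells to the ninth, and Skil from the last place to the sixth. With BI6727 the order was the same except that Smad3 (5.52 ± 0.00555) stood just above Smad5 (5.35 ± 0.00363), and no neighbours overlapped.

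**Figure D1:**
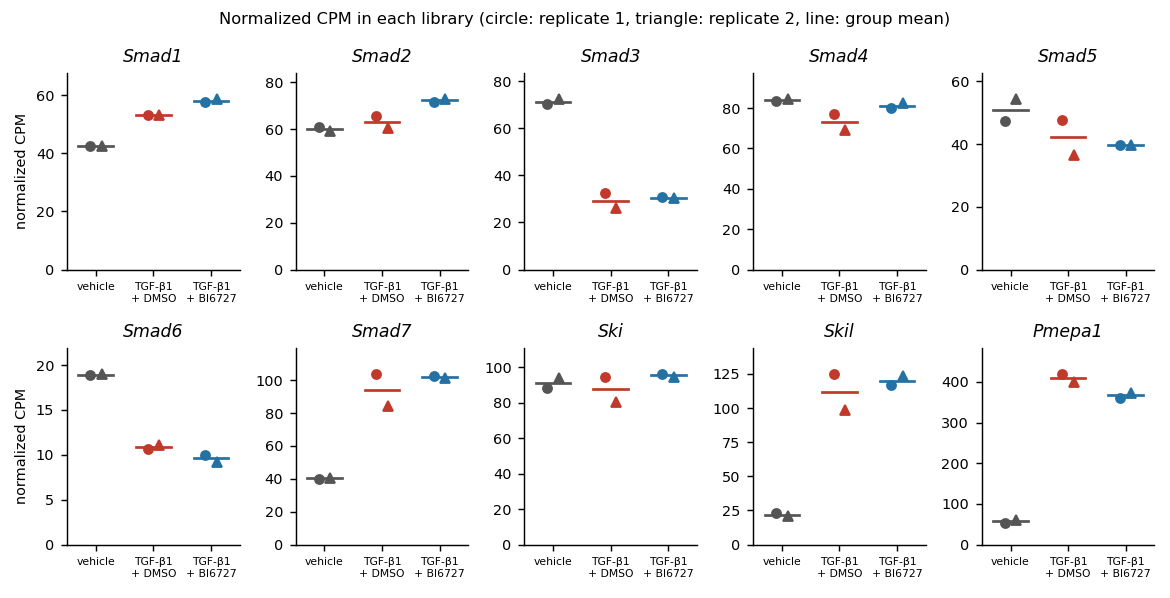
Normalized CPM of the 10 genes (one panel a gene, linear axis from 0) in each of the 6 libraries, with the circle for replicate 1, the triangle for replicate 2 and the line for the group mean. Smad7, Skil and Pmepa1 lie higher in all 4 libraries with TGF-β1 than with vehicle, Smad3 and Smad6 lie lower, and the DMSO replicates of Smad5, Smad7 and Skil lie far apart.

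Among the 10 genes, those that rose with TGF-β1 and DMSO against vehicle were the inhibitors Pmepa1 (7.11-fold), Skil (5.10-fold) and Smad7 (2.34-fold). The gene that fell by more than 2-fold was Smad3 (2.44-fold). Smad6, the inhibitory SMAD of the BMP branch, fell by a smaller fold. A gene was said to differ at a Benjamini-Hochberg adjusted p below 0.01 from edgeR's quasi-likelihood test over all 9518 genes, and was called where the fold change was also above 2. On that rule 4 of the 10 genes were called, 3 higher and 1 lower, where 5.1% of all tested genes were called. Without the fold minimum 5 of the 10 differed, 3 higher and 2 lower, against 9.82% of all genes. Without either vehicle replicate, 2 genes (Skil and Pmepa1) were called and differed, and without DMSO replicate 1, 7 differed. The 2 groups did not overlap in 7 of the 10, against 62.9% of all genes. The median log2 fold change was 0.0072 over the 10 genes, among which rises and falls were both present. Over all genes it was -0.0045, a value that the TMM scaling keeps near 0. In bulk RNA a lower level in every cell and a smaller share of cells with the RNA cannot be told apart.

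Pmepa1, which encodes a membrane protein that sequesters SMAD2 and SMAD3 (chromosome 2, 173224458 to 173276533), showed the largest change. It had 53.5 and 61.6 normalized CPM in the vehicle replicates, 420.2 and 399 in the DMSO replicates, and 362 and 372 in the BI6727 replicates. All 4 libraries with TGF-β1 were far above both vehicle libraries, and the BI6727 libraries lay below the DMSO libraries. The log2 fold change of TGF-β1 with DMSO against vehicle was 2.83 (standard error 0.11, adjusted p = 2.71e-05 by edgeR's quasi-likelihood test), and 99.6% of tested genes moved by less. It was between 2.73 and 2.94 when each library was left out in turn, with an adjusted p of at most 0.00309.

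Skil, the corepressor whose protein is degraded early in the response and whose gene is a known SMAD target (chromosome 3, 31095058 to 31122577), was the least abundant gene of the set per length in vehicle cells. Before that correction for length, its level was 22.8 and 21.2 normalized CPM with vehicle, 125 and 98.8 with DMSO, and 117 and 124 with BI6727. The DMSO replicates were on either side of the BI6727 replicates, and all of these were above vehicle. The log2 fold change against vehicle was 2.35 (standard error 0.14, adjusted p = 8.68e-05 by edgeR) with DMSO. Its relative Ski (chromosome 4, 155154075 to 155222592) had 88.1 and 93.8 normalized CPM with vehicle, 94.3 and 80.5 with DMSO, and 96.2 and 94.4 with BI6727. The Ski values of vehicle and DMSO overlapped, with a log2 fold change of -0.06 (standard error 0.11, 95% interval -0.31 to 0.20, adjusted p = 0.723 by edgeR), whose sign turned with length offsets and without DMSO replicate 2. Per length, the ratio of Skil to Ski in the same library was 0.149 and 0.129 with vehicle, 0.761 and 0.704 with DMSO, and 0.696 and 0.752 with BI6727. This ratio within a library does not depend on how the libraries were scaled, and its values with TGF-β1 lay apart from those with vehicle.

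Smad7, the inhibitory SMAD that targets the TGF-β receptor itself (chromosome 18, 75367529 to 75395935), had 39.9 and 40.5 normalized CPM in vehicle cells, 104 and 84.4 with DMSO, and 102 and 101 with BI6727. The vehicle libraries were the lowest, and the BI6727 replicates lay between the DMSO replicates. The log2 fold change with DMSO was 1.23 (standard error 0.12, adjusted p = 0.000675 by edgeR). Without vehicle replicate 1 the adjusted p was 0.0235 and without vehicle replicate 2 it was 0.0193, so that the call was lost, with log2 fold changes of 1.21 and 1.24. Smad6, the other inhibitory SMAD, moved the opposite way. It had 18.9 and 19.0 normalized CPM with vehicle, 10.7 and 11.1 with DMSO, and 10.0 and 9.19 with BI6727, so the groups did not overlap, on 180 to 418 counts. The log2 fold change with DMSO was -0.80 (standard error 0.14, adjusted p = 0.00703 by edgeR), a 1.74-fold fall that passed the test and not the fold minimum. This adjusted p was above 0.01 in 3 of the 10 other settings, at 0.0185 with the replicate block, 0.0276 with only these 2 groups in the fit and 0.0453 with limma's voom. It was also above 0.01 without vehicle replicate 1 (0.0656), vehicle replicate 2 (0.0615), BI6727 replicate 1 (0.0261) or BI6727 replicate 2 (0.0253). The ratio of Smad7 to Smad6 per length was 1.50 and 1.51 with vehicle, 6.90 and 5.38 with DMSO, and 7.25 and 7.80 with BI6727. Thus the balance within the inhibitory pair was several times further toward Smad7 in each library with TGF-β1.

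Smad3, a receptor SMAD that binds DNA directly, was the signal carrier within the set that moved most. Its level was 70.2 and 72.4 normalized CPM with vehicle, 32.4 and 26.0 with DMSO, and 30.6 in both BI6727 replicates. Both vehicle libraries were above all 4 libraries with TGF-β1, and the BI6727 values lay between the DMSO values. The log2 fold change with DMSO was -1.29 (standard error 0.14, adjusted p = 0.000845 by edgeR). It was -1.32 without vehicle replicate 1 and -1.26 without vehicle replicate 2, where the adjusted p rose to 0.0197 and 0.0193 and the call was lost. Smad2, which carries the same signal (chromosome 18, 76241580 to 76305731), had 60.9 and 59.1 normalized CPM with vehicle, 65.5 and 60.6 with DMSO, and 71.5 and 72.9 with BI6727. The vehicle and DMSO values of Smad2 overlapped, and its change on the log2 scale was 0.07 (standard error 0.10, 95% interval -0.16 to 0.31, adjusted p = 0.627 by edgeR). The ratio of Smad3 to Smad2 per length was 0.738 and 0.785 with vehicle, 0.317 and 0.274 with DMSO, and 0.274 and 0.268 with BI6727. The 2 genes thus changed unequally within every library that had TGF-β1.

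The common SMAD gene and Smad1 and Smad5 of the BMP branch did not pass the test. Smad4 (chromosome 18, 73639009 to 73703780) had 83.7 and 84.5 normalized CPM with vehicle, 77.1 and 69.1 with DMSO, and 79.8 and 82.3 with BI6727. The values of vehicle and DMSO did not overlap, with a log2 fold change of -0.20 (standard error 0.10, adjusted p = 0.180 by edgeR). Smad1 (chromosome 8, 79338395 to 79399518) had 42.5 normalized CPM in both vehicle replicates, 53.1 and 53.2 with DMSO, and 57.6 and 58.7 with BI6727. The Smad1 groups did not overlap, at a log2 fold change of 0.32 (standard error 0.10, adjusted p = 0.0583 by edgeR). Smad5 (chromosome 13, 56703010 to 56742377) had 47.5 and 54.4 normalized CPM with vehicle, 47.8 and 36.6 with DMSO, and 39.7 in both BI6727 replicates. Its vehicle and DMSO values overlapped, at a log2 fold change of -0.27 (standard error 0.15, adjusted p = 0.231 by edgeR). The results for Smad4 and Smad5 depended on DMSO replicate 1. Without it, Smad4 had a log2 fold change of -0.29 (adjusted p = 0.00835) and Smad5 of -0.48 (adjusted p = 0.00169). The ratio of Smad1 to Smad5 per length was 1.06 and 0.926 with vehicle, 1.32 and 1.72 with DMSO, and 1.72 and 1.75 with BI6727, without overlap between vehicle and TGF-β1.

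Taking the 7 SMAD genes as a whole, the inhibitory SMADs made up 18.3% of the summed per-length level in both vehicle libraries. With TGF-β1 their share was higher in all 4 libraries, at 30.5% and 29.2% with DMSO and at 29.5% and 28.6% with BI6727. The share of Smad2 and Smad3 was 37.2% and 36.5% with vehicle, 28.2% and 28.7% with DMSO, and 29.4% and 29.5% with BI6727. That of Smad4 was 28.1% and 27.9% with vehicle, between 24.1% and 25.1% in the libraries with TGF-β1. That of Smad1 and Smad5 was between 16.4% and 17.7% in all 6, with no separation of the groups. These shares are a description with no test. A rise of one class lowers the shares of the others, even where their own levels stay the same. The level of Smad4 itself was 22.7 CPM per kilobase with vehicle, 19.7 with DMSO and 21.8 with BI6727. Within the inhibitory class Smad7 was higher and Smad6 lower with TGF-β1.

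**Figure D2:**
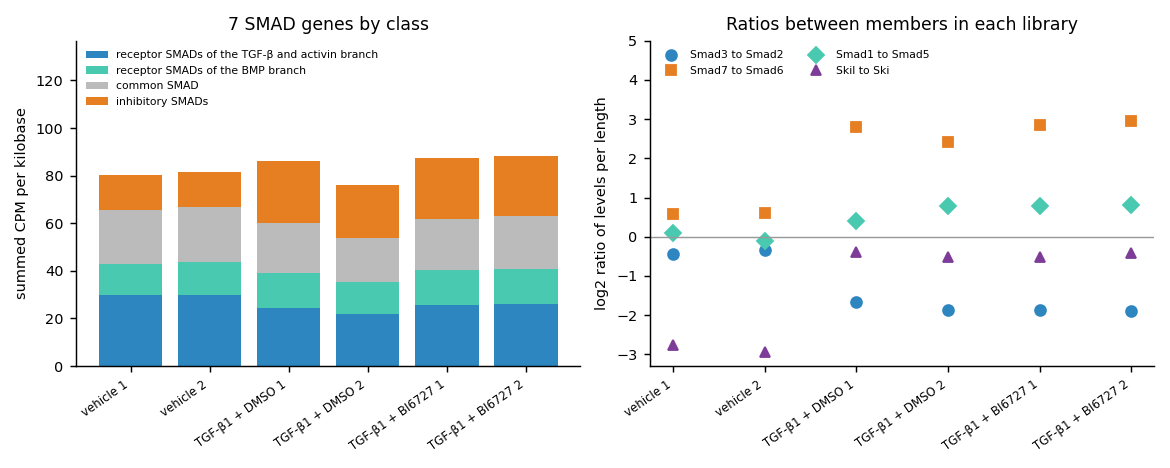
Left, summed level per length of the 7 SMAD genes in each library, in CPM per kilobase, stacked by class. Right, log2 ratio of per-length levels within each library for 4 pairs of genes; the ratios of Smad7 to Smad6 and of Skil to Ski lie higher and that of Smad3 to Smad2 lies lower in all 4 libraries with TGF-β1 than with vehicle.

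BI6727 was compared with DMSO under TGF-β1 to ask whether the drug altered the levels of these genes. PLK1 activity was not measured in these libraries. None of the 10 genes was called or differed by edgeR's quasi-likelihood test, where 0% of all tested genes were called and 0% differed without the fold minimum. At an unadjusted p below 0.05 there were 0 of the 10 genes and 636 of all genes. DESeq2 and limma's voom also called 0 of the 10, and called 11 and 1 of all genes. The adjusted p of the 10 genes was between 0.759 and 0.930. The groups did not overlap in 6 of the 10 genes, against 34.1% of all genes, and the median log2 difference of BI6727 from DMSO was 0.11 over the 10 and -0.0028 over all genes.

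The intervals give the size of difference that these libraries could still hold. For Pmepa1 the log2 difference of BI6727 from DMSO was -0.16 (95% interval -0.40 to 0.08), with both BI6727 libraries below both DMSO libraries. For Skil it was 0.10 (-0.20 to 0.41), for Smad7 0.11 (-0.17 to 0.39) and for Smad3 0.07 (-0.25 to 0.38), and in these 3 genes the libraries overlapped. For Smad6 it was -0.18 (-0.51 to 0.15) and for Smad2 0.20 (-0.04 to 0.43), the lowest and highest differences of the 10, and in both genes the groups did not overlap. Smad1 (0.13, -0.10 to 0.37), Smad4 (0.15, -0.09 to 0.38) and Ski (0.12, -0.13 to 0.38) had both BI6727 values above both DMSO values. Smad5 had a difference of -0.09 (-0.45 to 0.27) with overlap. No interval reached a 2-fold difference, and every interval included 0. As given above, 8 of the 10 genes were higher in DMSO replicate 1 than in DMSO replicate 2, and the part of that spread in these differences was not tested.

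**Figure D3:**
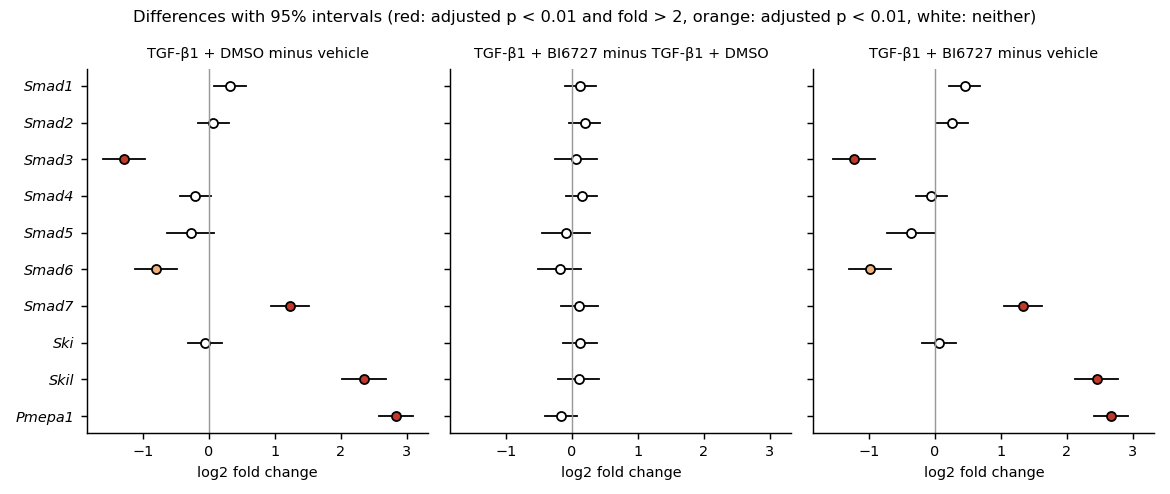
Log2 fold change of each gene (points) with its 95% interval (lines) in 3 panels: TGF-β1 with DMSO minus vehicle, BI6727 minus DMSO under TGF-β1, and TGF-β1 with BI6727 minus vehicle. Red marks genes called, orange marks Smad6, which differed by less than 2-fold, and in the middle panel every interval includes 0 (the outer panels share the vehicle libraries).

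TGF-β1 with BI6727 was also compared with vehicle. This comparison has the same vehicle libraries as the comparison for DMSO, so the 2 are not independent, and its values are given beside the earlier ones. Of the 10 genes, 4 were called, 3 higher and 1 lower, against 5.31% of all genes, and 5 differed without the fold minimum, against 10.9%. The groups did not overlap in 10 of the 10, against 76.8% of all genes. The log2 fold change was 2.67 for Pmepa1 (2.83 with DMSO), 2.45 for Skil (2.35), 1.34 for Smad7 (1.23) and -1.22 for Smad3 (-1.29). Smad6 had a log2 fold change of -0.98 (-0.80 with DMSO) and an adjusted p of 0.00279 by edgeR, a 1.97-fold fall just short of the fold minimum. Smad1 had 0.45 (adjusted p = 0.0173), Smad5 -0.36 (0.131), Smad2 0.27 (0.0949), Ski 0.07 (0.687) and Smad4 -0.05 (0.730). Without vehicle replicate 1 or vehicle replicate 2 only Skil and Pmepa1 were called and differed, with the adjusted p of Smad7 at 0.0170 and 0.0142, of Smad3 at 0.0213 and 0.0212, and of Smad6 at 0.0364 and 0.0343. Without BI6727 replicate 1 or 2, 3 genes differed, since Smad3 (0.0192 and 0.0200) and Smad6 (0.0339 and 0.0481) no longer passed. Without DMSO replicate 1 or 2, 8 genes differed, as Smad1 (0.000172 and 0.000170), Smad2 (0.00680 and 0.00622) and Smad5 (0.00307 and 0.00296) then passed as well.

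The machinery around these genes was followed through 105 genes in 8 lists, of which 81 were tested. These lists too were chosen with earlier results of these data known. With TGF-β1 and DMSO against vehicle, 10 of the 81 were called higher and 6 lower (16 of 81, against 5.1% of all tested genes), and the median log2 fold change was -0.10. Among 13 tested genes known as direct targets of TGF-β and SMAD3, 6 were called higher and 0 lower, with a median of 0.86. They included Ccn2 (log2 fold change 3.65, standard error 0.11, adjusted p = 2.18e-05 by edgeR), which encodes a matricellular protein, and Acta2 (2.30), which encodes the α-smooth muscle actin of myofibroblasts. Also called were Timp1 (1.36), an inhibitor of matrix metalloproteinases, the transcription factor gene Bhlhe40 (1.31) and Tgfb1 (1.24), the gene of the ligand itself. Of 11 genes known as targets of BMP and its SMADs, 3 were tested, and all 3 were called lower. These 3 encode ID proteins, which block basic helix-loop-helix factors. Their log2 fold changes were -1.96 for Id2, -1.34 for Id3 and -1.08 for Id1. The called genes of the SMAD3 list were thus all higher and those of the BMP list all lower. Not every gene of the SMAD3 list had a higher value, since Col1a2, which encodes a collagen chain, was at -0.67 (adjusted p = 0.0700) and Tgfbi, under the filter and described further on, was also lower.

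Among the other lists, 7 of 65 tested genes were called, against 5.1% of all tested genes. Of 8 tested receptors and coreceptors, Tgfbr3, which encodes the coreceptor betaglycan, was called lower (138 and 112 normalized CPM with vehicle, 21.8 and 16.9 with DMSO, log2 fold change -2.69, standard error 0.17, adjusted p = 0.000102 by edgeR) and 0 higher. Of 9 anchors and adaptors, Ldlrad4, a relative of Pmepa1 that also binds SMADs, was called higher (1.26) and Cav1, the caveolin of membrane pits that take up receptors, lower (-1.33). Of 18 ubiquitin ligases and deubiquitinases, the ligase gene Wwp2 was called higher (1.12). Of 9 phosphatases and linker kinases, Ctdsp2, which encodes a phosphatase of the SMAD linker, was called lower (-1.06). Of 21 nuclear partners, the corepressor gene Tgif1 (1.29) and the stress factor gene Atf3 (2.23) were called higher. Atf3 had 4.26 and 5.05 normalized CPM with vehicle, and 16.1 and 27.7 with DMSO, so its replicates differed by much of their mean.

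BI6727 against DMSO gave 0 calls among the 81 genes, and 0 without the fold minimum, by edgeR's test. The median log2 difference was 0.0016. Ccn2 was at -0.70 (adjusted p = 0.194), Cav1 at -0.84 (0.183) and Acta2 at -0.50 (0.468), none of which passed. With BI6727 against vehicle, which shares the vehicle libraries, 8 of the 81 were called higher and 6 lower (14 of 81, against 5.31% of all tested genes). Kat2b, which encodes a histone acetyltransferase, was called there (-1.06, adjusted p = 0.00467) with -0.72 for DMSO (adjusted p = 0.0218), while Wwp2 (0.80), Tgfb1 (0.91) and Id1 (-0.95) differed without reaching 2-fold.

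**Figure D4:**
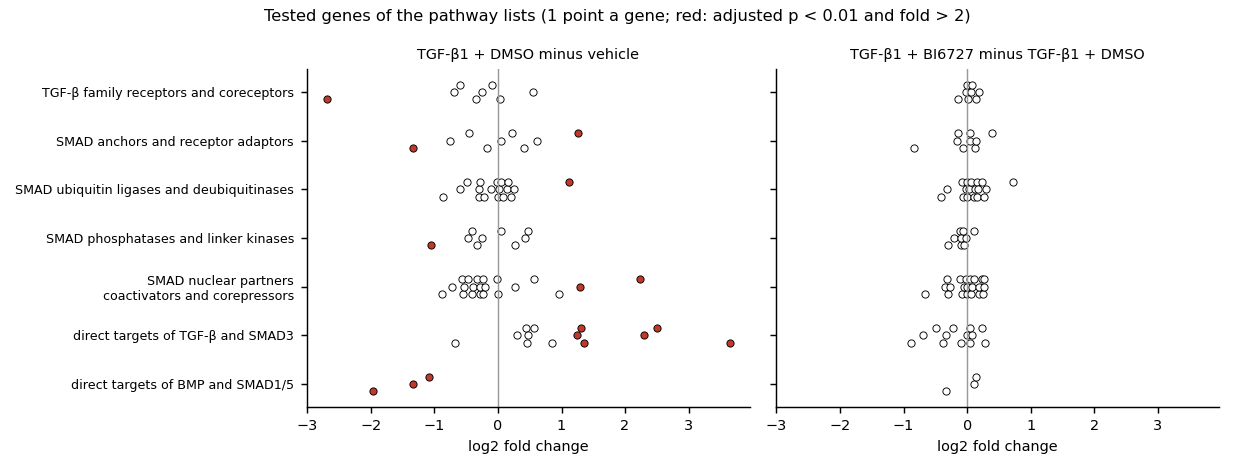
Log2 fold change of the 81 tested pathway genes, 1 point a gene, by list, for TGF-β1 with DMSO minus vehicle (left) and BI6727 minus DMSO under TGF-β1 (right). Red marks called genes, of which the left panel has 10 higher and 6 lower and the right panel has 0.

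A further 24 of the 105 genes were under the filter on low counts, which asks for 4 libraries and so leaves out a gene that is high in the 2 vehicle libraries only. With edgeR's filterByExpr in its place, 14604 genes were tested and 5.98% of them were called between TGF-β1 with DMSO and vehicle. Of the 24 genes, 15 were then tested, with 1 called higher and 3 lower. Hgs was not tested. Its symbol has 2 identifiers, of which the older was used, at 0 to 1 counts, so the level of this gene is not known. Smad9, the third receptor SMAD gene of the BMP branch, had 13.1 and 11.6 normalized CPM with vehicle, 3.48 and 5.15 with DMSO, and 3.95 and 3.02 with BI6727. It was lower in all 4 libraries with TGF-β1, with a log2 fold change of -1.51 for DMSO against vehicle (standard error 0.25, adjusted p = 0.00356 by edgeR). Atoh8, a transcription factor gene and BMP target, had 45.6 and 43.4 normalized CPM with vehicle and 4.39 and 4.91 with DMSO, with a log2 fold change of -3.25 (standard error 0.18, adjusted p = 1.64e-05). Id4 was called lower (-1.24, adjusted p = 0.00813) and Acvrl1, a type I receptor gene at 17 to 129 counts, higher (1.83, adjusted p = 0.00557). Also on the BMP list, Hey1 was at 1.57 on 4 to 20 counts (adjusted p = 0.107 by edgeR). Fst of that list was at -0.93 (adjusted p = 0.0619 by edgeR), and neither passed. Tgfbi, a matrix protein gene on the list of SMAD3 targets, had 11.5 and 11.9 normalized CPM with vehicle, 7.15 and 3.80 with DMSO, and 2.45 and 2.32 with BI6727. Its log2 fold change was -1.09 for DMSO against vehicle (adjusted p = 0.0281), which did not pass, and -2.28 for BI6727 against vehicle (adjusted p = 0.00133), which was called, where 6.22% of all genes were called. The genes named in this paragraph, and Col1a2, were picked for naming with their values in view. BI6727 against DMSO gave 0 calls among the 15, where 0% of all genes were called.

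For each gene that differed, the tested genes with the most similar pattern were named by Pearson's r of log2 CPM over the 6 libraries. With 3 groups of 2, such an r mostly follows the step between vehicle and TGF-β1, and between 506 and 663 genes had r above 0.95 with each of the 5. The closest to Pmepa1 were Epha2, Serpina3h and Pdgfa, those to Skil were Jam2, Jag1 and Sdc1, and those to Smad7 were Irf2bpl, Itgb1 and Lrrc59. For Smad3 they were Pik3r1, Fnbp1 and Col4a6, and for Smad6 they were Gm13509, Polr2m and Casp12. All of these had r of at least 0.998. Serpina3h belongs to a family of similar genes among which reads can be split, so its value is uncertain. Within the set, r was 0.997 between Smad7 and Skil, 0.991 between Skil and Pmepa1, and 0.952 between the neighbours Smad3 and Smad6, as descriptions of 6 libraries that share the same step.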

How the data were processed

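RNA was measured in 6 libraries of NIH/3T3 cells, 2 in each of 3 groups named by the sample labels. The authors removed ribosomal RNA, sequenced on a BGISEQ-500, mapped the reads to mm10 with Subjunc, counted them on Gencode genes with featureCounts (Subread 1.6.4 in the submitters' processing notes), and deposited whole counts without normalization. The strand setting was not found in the sources used here, so reads from a gene and an antisense partner could not be told apart. Without molecular identifiers, counts are not independent molecules. Symbols were matched by Ensembl identifier (54723 of 54752).

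Genes reaching 10 CPM in more than 3 libraries were fitted in R 4.3.3 with edgeR 4.0.16 (TMM, quasi-likelihood test, one fit of 6 libraries, 3 residual degrees of freedom, no covariate), and p-values were adjusted by Benjamini-Hochberg over all 9518 genes. Standard errors are the size of the log2 fold change divided by the square root of F. The script was tested on simulated data. Members, pathway lists and markers were chosen with earlier results of these data known. Named genes were the 10 members, pathway genes called in any comparison, and the 3 genes most like each member that differed. Some genes that this rule selects are left out of the text. Same-numbered replicates gave correlations of their deviations of -0.11, 0.05 and -0.26 between groups and were not treated as pairs. DESeq2 1.42.0, limma 3.58.1 (voom), DESeq2's size factors, other filters, only 2 groups, length offsets, the replicate block and leaving out each library were tried as alternatives. The crossed block was chosen after seeing the data. Promoter windows are RefSeq's (GRCm38.p6, the assembly of mm10), and coordinates are 1-based.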

Additional observations from a re-analysis of the deposited data

How the results depend on the processing

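The counts of member genes called were 4, 0 and 4 in the 3 comparisons, as in the report, under each of the 10 alternatives that leave out no library of the groups compared. The counts with no fold minimum stayed within 1.5 times, with 2 exceptions given here. For TGF-β1 with DMSO against vehicle, leaving out each library in turn gave 2 to 4 genes called and 2 to 7 that differed with no fold minimum. The lowest counts came without vehicle replicate 1 and without vehicle replicate 2, each with 2. For TGF-β1 with BI6727 against vehicle the ranges were 2 to 4 and 2 to 8, with 2 again without either vehicle replicate. In that comparison 8 genes differed with only these 2 groups in the fit and 8 with voom, 5 higher and 3 lower, against 5 in the report, and the cause was not tested. With a library left out, the lone remaining one is assumed to vary like the other groups. For BI6727 against DMSO, 0 genes were called or differed under every alternative run.

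Directions turned for small differences that did not pass the test. For TGF-β1 with DMSO against vehicle, the log2 fold change of Ski was 0.0030 with length offsets, 0.0018 with length offsets and the replicate block, and -0.18 to 0.064 with libraries left out. For BI6727 against DMSO, leaving out libraries gave -0.099 to 0.24 for Smad3, -0.28 to 0.12 for Smad5, -0.043 to 0.27 for Smad7 and -0.070 to 0.29 for Skil. The extremes of opposite sign came without DMSO replicate 2, and for Smad5 without DMSO replicate 1.

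The replicate numbers are not known to pair the libraries. With the replicate block, 4 genes were called and 4 differed for TGF-β1 with DMSO against vehicle, since Smad6 had an adjusted p of 0.0185. With the DMSO numbers crossed, an alternative chosen after seeing the data, 4 were called and 5 differed. For TGF-β1 with BI6727 against vehicle both blocks gave 4 called and 5 that differed. Over single genes, 286 values under alternatives with all libraries stayed on the same side of the threshold with the same sign, 9 passed it, 3 no longer did and 2 turned sign. With 2 libraries a group, a difference smaller than the distance from the estimate to either end of its interval could not be told from 0.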
